A study of Mus musculus with 10 samples.

Results

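The 36 genes described here are listed type I interferon response genes, which most cell types switch on when interferon alpha or beta reaches them. They were chosen by name, with earlier results of these data known. Probes were assigned through their transcript accessions, and 34 of the 36 genes were measured, by 49 probes, of which 47 were bright enough to keep. All 34 genes stayed in after the filter on dim probes, among 22008 genes in the whole data set. Mx1 and Mx2 were not matched to a probe and are not analysed here.

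The RNA came from colonies of mouse bone marrow cells carrying BCR-ABL, an oncogenic fusion kinase found in chronic myeloid leukaemia and in some acute lymphoblastic leukaemias. Marrow of 6-week-old donors was exposed to retrovirus, plated after 24 hours in methylcellulose that held no growth factor, and colonies were picked 10 days later. The cells were wild type (Cdk6+/+), lacked the cell cycle kinase CDK6 (Cdk6-/-), or carried Cdk6-K43M, a CDK6 protein without kinase activity. All 3 genotypes shared the BCR-ABL transformation and the culture without growth factors. Each of 4 Cdk6-/- and 4 Cdk6-K43M samples was labelled with Cy5 and hybridised on its own 2-colour array against a common Cy3 pool of 4 wild-type samples. Each genotype also had 1 array on which a pool of its 4 RNAs was hybridised with exchanged dyes, so that there were 10 arrays. The samples are described as biological replicates, but the number of animals, cultures or colonies behind each is not stated in the labels. A p-value here measures the spread between these samples alone, which may be partly technical.

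Every value below is a log2 ratio of mutant over the wild-type pool, with 0 at the level of the pool. The pool counts as 1 control sample without a spread of its own. Ratios of bulk RNA cannot tell fewer cells that express a gene from less of its RNA per cell. Between 46.9 and 49.9% of probes had a signal well above background for the mutant RNA and 45.8 to 50% for wild type, and the number of arrays limits the precision. The 10 markers of B-lineage progenitors, among them Pax5 and Rag1, were well above background in all samples. The library labelled Cdk6-K43M replicate 4 stood apart by its macrophage transcripts. Its median over 8 measured monocyte and macrophage markers was 1.85, against -0.33 to -1.02 in the other Cdk6-K43M samples and -0.48 to -1.46 in the Cdk6-/- samples. The single Cdk6 probe gave -0.37, -0.40, -0.18 and 0.0024 in Cdk6-/- replicates 1 to 4, and whether it lies in the deleted part is not stated in the labels, so it does not check the labels.

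Type I interferon signals through a receptor of the chains IFNAR1 and IFNAR2 and the kinases JAK1 and TYK2. These phosphorylate STAT proteins, STAT2 among them, which join IRF9 and bind a DNA element named the interferon-stimulated response element (ISRE). The genes behind such elements encode sensors of viral RNA, enzymes that block translation or degrade RNA, and regulators that strengthen or end the response. In haematopoietic progenitors the same response is known for restraining or altering growth as well as for antiviral defence.

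The promoters of several members are shown as a description. The genes were listed as responding to a signal that acts through the ISRE, so matches to it are no independent support for the list. Each window ran from 250 bases before to 50 bases after the RefSeq gene start in the GRCm38.p6 build. The core of the element was searched on both strands as GAAA, any 2 bases and GAAA again, which reads TTTC, any 2 bases and TTTC from the opposite strand, and matches may overlap. Of the members, 27 had a window and 13 of them (48.1%) held at least 1 match, against 3.99% of 27025 genes with a window. Stretches with the matching bases in capitals, 5′ to 3′ along the strand of the gene, were as follows.
Isg15: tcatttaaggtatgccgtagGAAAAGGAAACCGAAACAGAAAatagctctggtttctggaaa
Oas1a: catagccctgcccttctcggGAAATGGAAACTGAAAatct
Bst2: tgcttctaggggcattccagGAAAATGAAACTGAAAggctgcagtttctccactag
Ifit1: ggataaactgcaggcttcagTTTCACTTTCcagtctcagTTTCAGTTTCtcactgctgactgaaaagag
Ifit3: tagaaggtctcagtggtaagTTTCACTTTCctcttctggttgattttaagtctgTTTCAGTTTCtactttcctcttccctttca
Oas1c: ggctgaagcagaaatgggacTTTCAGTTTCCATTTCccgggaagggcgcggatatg
Stat2: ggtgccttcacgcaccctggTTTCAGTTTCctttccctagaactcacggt

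The Isg15 stretch lies at chr4:156200855-156200916 on the minus strand and holds 3 overlapping matches. Oas1a is at chr5:120907526-120907565 and Oas1c at chr5:120812593-120812648, both on the minus strand and each with 2 overlapping matches. The Bst2 stretch, at chr8:71537567-71537622 on the minus strand, also has 2 that overlap. Ifit1 at chr19:34640765-34640833 and Ifit3 at chr19:34583353-34583436 lie on the plus strand and each carry a pair of separate matches. Stat2, at chr10:128270256-128270305 on the plus strand, has 1. Ddx58, Ifih1, Eif2ak2, Cxcl10, Oas3 and Rsad2 also held a match. Parp9, Parp14, Zbp1, Rtp4, Oas2, Dhx58, Usp18, Mx1 and Mx2 are named only. A match is a string of letters and not a known binding site, and its absence from a window says nothing about the factor.

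The values of these genes differed widely between samples of 1 genotype, and they did so together. The median of the 34 genes was 0.07, -0.03, -0.55 and 0.88 in Cdk6-/- replicates 1 to 4, and -0.49, -0.70, -1.10 and 0.53 in Cdk6-K43M replicates 1 to 4. The pools with exchanged dyes gave 0.30 for Cdk6-/- and -0.17 for Cdk6-K43M. Within each genotype, then, 1 sample lay well above the other 3 and 1 lay below them, and the ranges of the genotypes overlapped. The median of all genes was between -0.018 and 0.007 on the single-sample arrays.

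**Figure D1:**
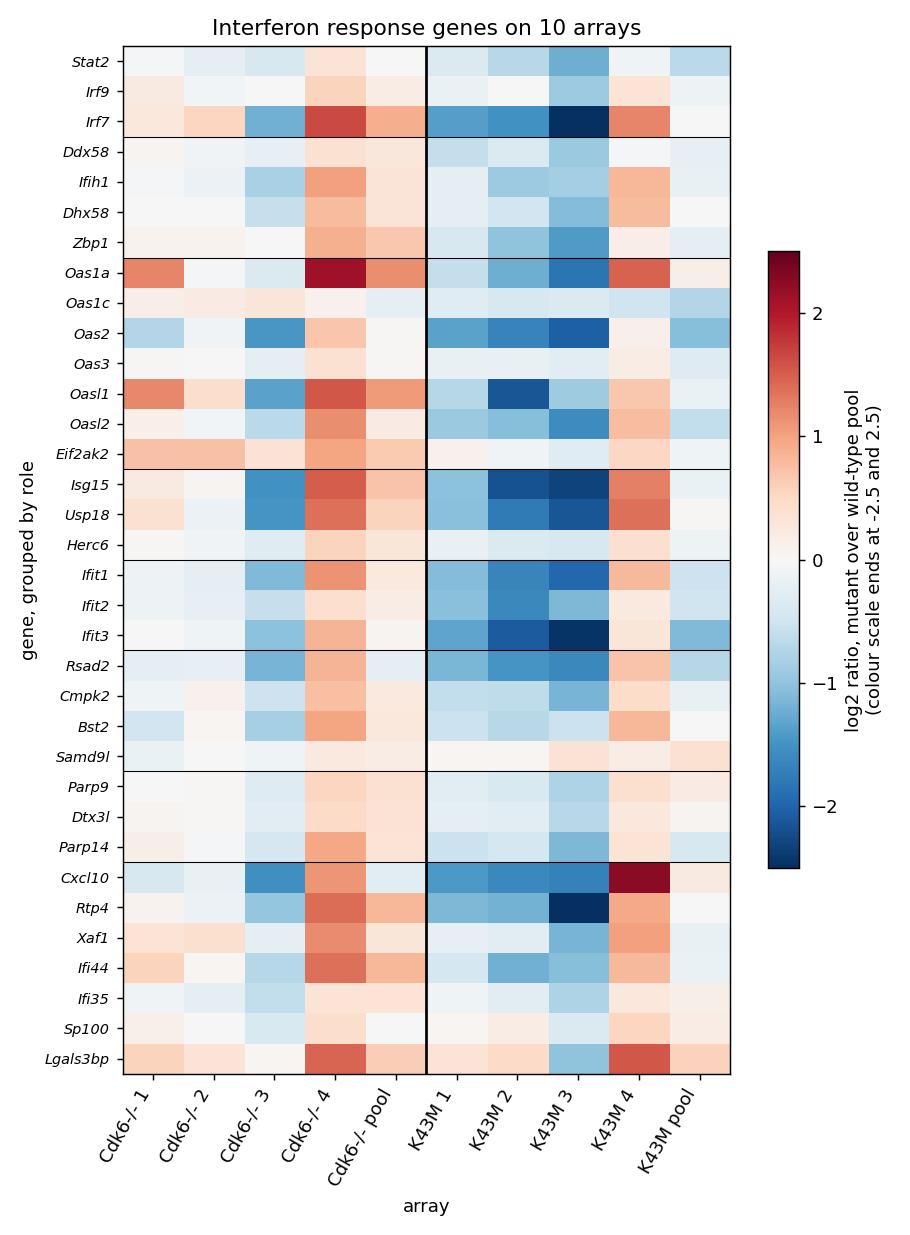
Log2 ratio of mutant over the wild-type pool for the 34 measured interferon response genes (rows, grouped by role and separated by lines) on the 10 arrays (columns), with colours ending at -2.5 and 2.5. Replicate 4 of each genotype is the reddest column and replicate 3 the bluest, whereas Oas1c and Samd9l change little between the 4 samples of a genotype.

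The same samples were at the ends for nearly every gene. Among the Cdk6-/- samples, replicate 4 was the highest in 33 of the 34 genes and replicate 3 the lowest in 31, while over all genes these samples were highest in 29.7% and lowest in 32.2%. Both held at once in 31 members and in 16.1% of all genes. In Cdk6-K43M, replicate 4 was the highest in 32 members (27.8% of all genes) and replicate 3 the lowest in 27 (22.4%), with both in 27 members and in 9.96% of all genes. These orders within a genotype do not depend on the wild-type pool, because each ratio of a gene has the same pool beneath it. They are descriptions without a test, since the samples at the ends were identified from the values.

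The size of this spread was large for the data set. Over the 4 Cdk6-/- samples the SD of a member had a median of 0.58, against 0.141 for all genes, and 32 of the 34 lay above the upper quartile of all genes (0.211), 20 above the 95th percentile (0.427). Over the Cdk6-K43M samples the median SD was 0.79 against 0.148, with 31 above the upper quartile (0.227) and 23 above the 95th percentile (0.509). In 29 of the 34 members the SD was larger in Cdk6-K43M than in Cdk6-/-. The share of all genes for which this held was not computed, and the quantiles of all genes given here were also larger in Cdk6-K43M. From replicate 3 to replicate 4 of Cdk6-/- the members differed by a median of 1.40, or 2.63-fold, and by up to 3.03, or 8.16-fold, for Isg15. Between the same numbers of Cdk6-K43M the median difference was 1.60, or 3.04-fold, and the largest 4.11, or 17.2-fold, for Rtp4. Oas1c was the single member with an SD under the median of all genes, 0.0778 in Cdk6-/- and 0.0776 in Cdk6-K43M.

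**Figure D2:**
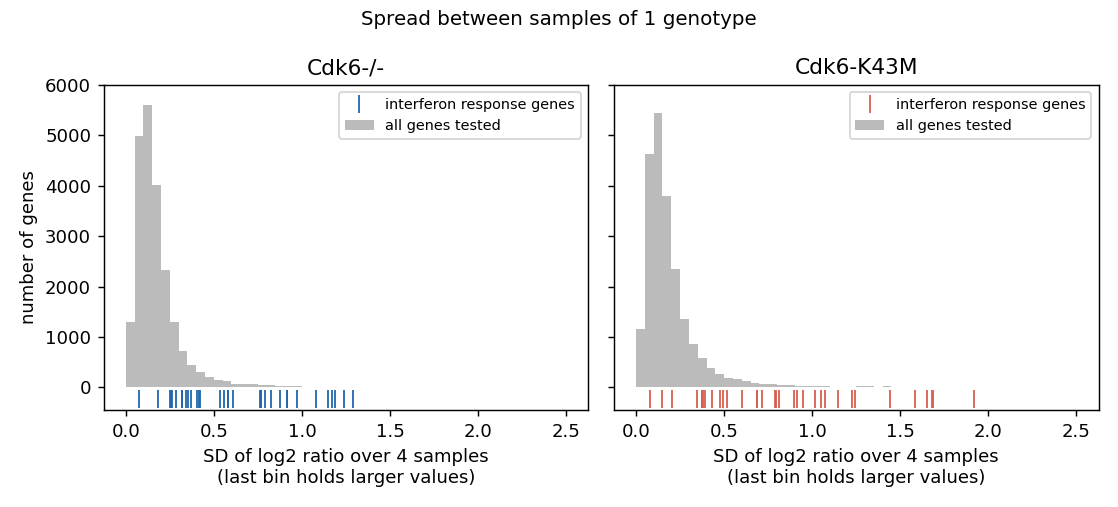
SD of the log2 ratio over the 4 samples of a genotype (x axis) for all genes tested (grey histogram, number of genes on the y axis) and for the 34 interferon response genes (ticks beneath). Most ticks lie to the right of the bulk of the histogram, with medians of 0.58 in Cdk6-/- and 0.79 in Cdk6-K43M.

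Against wild type, 1 member rose in Cdk6-/- colonies. This was Eif2ak2, at 0.66 (1.58-fold). Of all genes 7.24% passed in this comparison, 3.39% higher and 3.85% lower, so that 1 of 34 (2.94%) lay below that share. The fitted values of the other 33 ranged from -0.22 to 0.98, and the median of the 34 was 0.17 beside 0.0014 for all genes, with 29 above 0 and 5 below. The test was limma's moderated linear model on all 10 arrays with a dye term, its p-values adjusted by Benjamini-Hochberg over all genes and called under 0.05. The median moved to 0.039 without Cdk6-/- replicate 4 (21 above 0, 13 below) and to 0.30 without replicate 3 (32 above, 2 below). On the 8 single-sample arrays without a dye term it was 0.056, with 24 above 0 and 10 below. In Cdk6-/- replicates 1 to 4 taken singly, 21, 14, 3 and 34 members lay above the pool. The shares of all genes were 51.1, 50.5, 47.8 and 50.4%.

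In Cdk6-K43M colonies 3 members passed the same test. Oas1c fell by 0.58 and Stat2 by 0.61, and Samd9l rose by 0.26. Of all genes 20.1% passed, 9.79% higher and 10.3% lower, against 3 of 34 members (8.82%). The median of the 34 was -0.33 beside -0.01 for all genes, and 31 fitted values lay below 0. Under median centring, which put the median of all genes at 0.112, the members' median was -0.22 and 23 were below 0. Without Cdk6-K43M replicate 4, 10 members passed and all of them fell, where 19.7% of all genes passed (9.6% higher, 10.1% lower). The median of the 34 was then -0.56. Those 10 were Ifit1, Ifit2, Ifit3, Oas1c, Oas2, Oasl2, Rsad2, Stat2, Zbp1 and Ddx58. Replicate 4 was known from these same values as the highest sample for most members. Leaving it out was bound to lower their fitted values, so this count is a description and no test. The same holds for the adjusted p-values without replicate 4 given below for single genes. Leaving out Cdk6-/- replicate 3, which shares the estimate of spread, gave 5 (Ifit3 and Oas2 in addition, 4 lower and 1 higher) where 20.5% of all genes passed (10% higher, 10.4% lower). Without Cdk6-K43M replicate 2 or 3 the median was -0.19 or -0.18, and 2 members passed in each case, where 17.7% and 17.4% of all genes did.

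The difference between the mutants was tested on the 8 single-sample arrays, in which the wild-type pool and the dye are the same for both, and only Oas1c passed. It was lower in Cdk6-K43M by 0.59 on the log2 scale (-0.59). Of all genes 0.513% passed this comparison, 0.264% higher and 0.25% lower. The median difference of the 34 members, Cdk6-K43M minus Cdk6-/-, was -0.58 beside -0.0095 for all genes, and 32 were below 0. It was -0.35 without Cdk6-/- replicate 4, -0.37 without Cdk6-K43M replicate 3 and -0.86 without Cdk6-K43M replicate 4. Oas1c no longer passed without Cdk6-/- replicate 1 or 2 (adjusted p = 0.0618 and 0.0504). Nor did it pass with slide as a block (0.0806), with replicate number as a block (0.0646) or with median centring (0.0551). It was also the single member whose 4 and 4 samples did not overlap, which held for 8.17% of all genes, for 4.11% with Cdk6-/- above and 4.05% with it below. Members with widely spread samples had wide intervals, and for Isg15 the difference was -1.14 with a 95% interval of -3.07 to 0.80. The fit did not pair samples by replicate number, so any spread shared by same-numbered samples stays in these intervals.

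**Figure D3:**
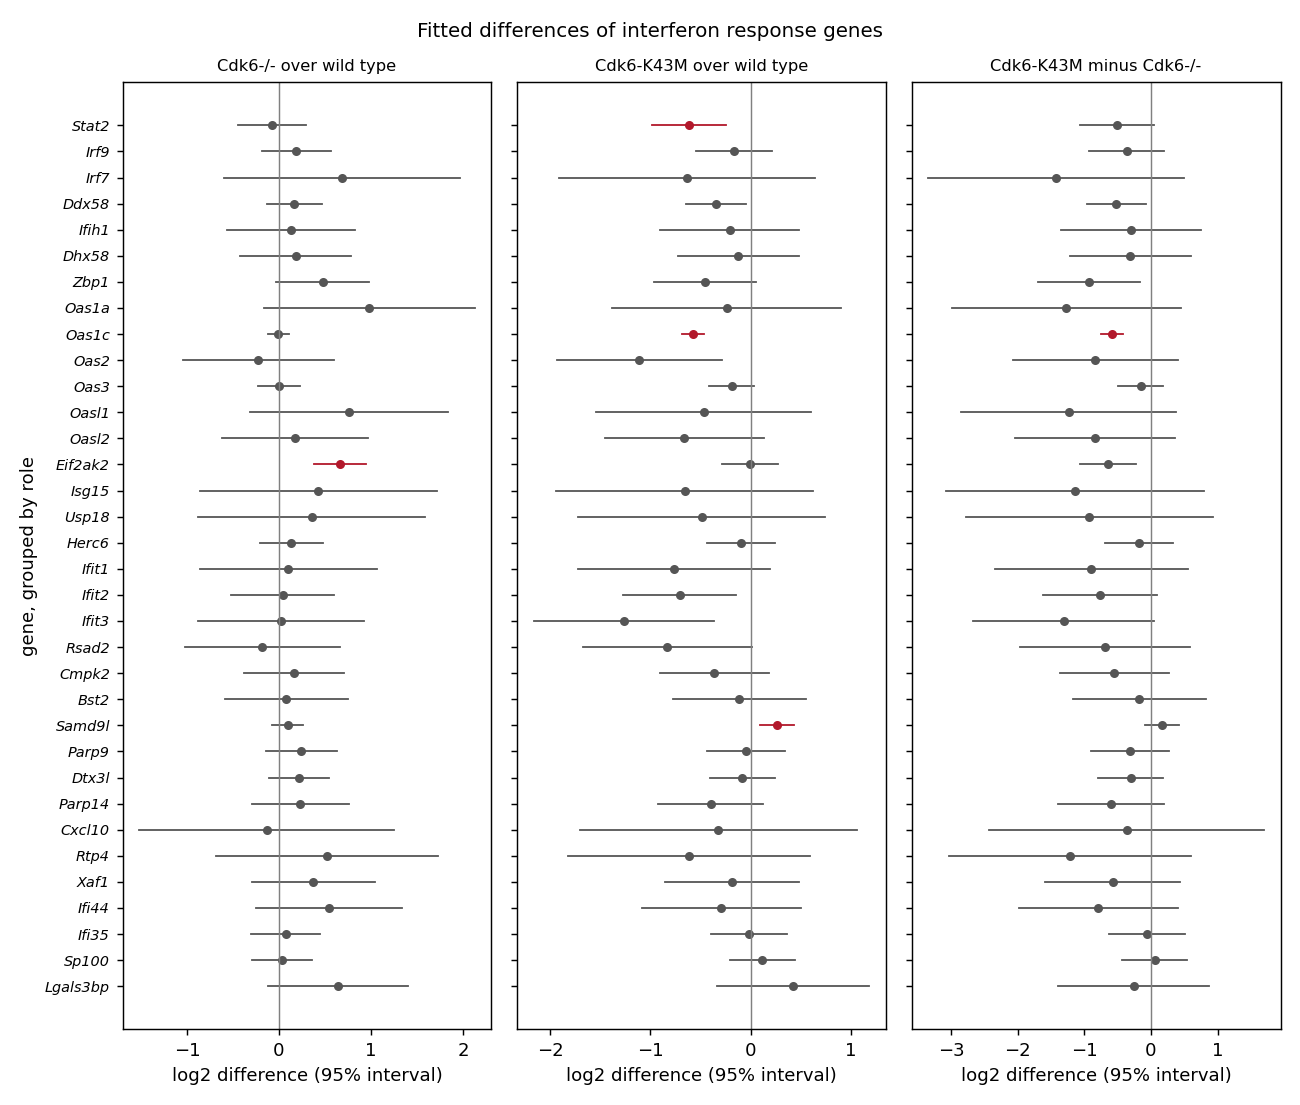
Fitted log2 differences of the 34 interferon response genes with 95% intervals in the 3 comparisons (x axis; genes on the y axis by role). Red marks the genes past the test, which are Eif2ak2 in Cdk6-/-, Stat2, Oas1c and Samd9l in Cdk6-K43M, and Oas1c between the genotypes.

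Among the 3 transcription factors listed as members, Stat2, a subunit of the factor that binds the ISRE, was the one that passed a test. Its log2 ratios were -0.05, -0.24, -0.40 and 0.34 in Cdk6-/- and -0.36, -0.69, -1.21 and -0.11 in Cdk6-K43M, with -0.02 and -0.68 in the pools. All 5 Cdk6-K43M arrays lay below the wild-type pool, while the lowest Cdk6-/- samples reached into the Cdk6-K43M range. The fitted change in Cdk6-K43M was -0.61 (SE 0.165, adjusted p = 0.027), and without replicate 2 its adjusted p was 0.0556. The difference from Cdk6-/- was -0.51 (95% interval -1.06 to 0.047, adjusted p = 0.389). A second, dimmer Stat2 probe gave a mean of -0.09 in Cdk6-K43M against -0.59 for the probe used, so the probes disagree. Irf9, the DNA-binding partner of STAT2, and Irf7, the factor that amplifies interferon production, did not pass in any comparison. Irf7 was among the most variable members, running from -1.19 to 1.64 in Cdk6-/- and from -2.79 to 1.23 in Cdk6-K43M, though its other probe averaged -0.21 in Cdk6-K43M where the one used averaged -1.11.

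The sensors of foreign nucleic acids, Ddx58 (RIG-I), Ifih1 (MDA5), Dhx58 (LGP2) and Zbp1, did not pass in any of the 3 comparisons. Zbp1, which recognises Z-form nucleic acids and can trigger necroptosis, had 0.09, 0.09, -0.01 and 0.90 in Cdk6-/- and -0.41, -1.001, -1.41 and 0.16 in Cdk6-K43M. Its pools gave 0.68 and -0.23. Replicate 4 of Cdk6-K43M was the only sample of its genotype above any Cdk6-/- sample. The difference between the genotypes was -0.93 (SE 0.337, adjusted p = 0.276). For Ddx58 the ratios were 0.07, -0.09, -0.21 and 0.39 in Cdk6-/-, -0.59, -0.37, -0.93 and -0.03 in Cdk6-K43M, and 0.29 and -0.20 in the pools. All Cdk6-K43M arrays were below the wild-type pool, yet replicate 4 lay inside the Cdk6-/- range. Its fitted change in Cdk6-K43M was -0.34 (adjusted p = 0.0978), and the 3 other Ddx58 probes averaged -0.21, -0.02 and -0.02 there against -0.48 for the one used.

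The oligoadenylate synthetases make a messenger of the antiviral response from ATP, and PKR, encoded by Eif2ak2, halts translation by phosphorylating the initiation factor eIF2. Eif2ak2 was at 0.73, 0.73, 0.37 and 0.99 in the Cdk6-/- samples and 0.65 in their pool, so every Cdk6-/- array lay above wild type. In Cdk6-K43M it was at 0.11, -0.08, -0.31 and 0.51, with -0.10 in the pool. The 2 sets of samples overlapped only through Cdk6-K43M replicate 4 and Cdk6-/- replicate 3. Its rise in Cdk6-/- was 0.66 (SE 0.126, adjusted p = 0.017). The call was lost with slide as a block (adjusted p = 0.0629) and with the variance doubled for the unmeasured spread of the wild-type pool (adjusted p = 0.181). The difference between the genotypes was -0.65 (95% interval -1.07 to -0.22, adjusted p = 0.199).

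Oas1c, a mouse relative of the synthetase gene Oas1a, had the smallest spread of all members and the clearest difference between the genotypes. Its ratios were 0.17, 0.20, 0.30 and 0.11 in Cdk6-/- and -0.31, -0.41, -0.36 and -0.50 in Cdk6-K43M. The groups were separate and each was tight. The pools gave -0.23 and -0.74, each lower than all 4 of its samples. Its fall in Cdk6-K43M against wild type was 0.58 on the log2 scale (SE 0.0495, adjusted p = 0.00011), and the change in Cdk6-/- was -0.01 (adjusted p = 0.959) in a fit where the pool array and the 4 samples had opposite signs. The difference between the genotypes was -0.59 (SE 0.0738, adjusted p = 0.0132). A second Oas1c probe, also well above background on all arrays, averaged 0.10 in Cdk6-/- and 0.094 in Cdk6-K43M, and with the mean of both probes the difference was -0.30 (adjusted p = 0.174). The result therefore belongs to 1 probe, and Oas1 genes are close copies whose cross-hybridisation was not tested. As the promoter stretches above show, its window holds matches to the same core as that of Oas1a, whose samples spread widely.

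Oas1a itself had 1.23, -0.05, -0.36 and 2.11 in Cdk6-/-, -0.59, -1.23, -1.82 and 1.48 in Cdk6-K43M, and 1.15 and 0.14 in the pools. Its samples spread widely within each genotype, and the groups overlapped. Its fitted change in Cdk6-/- of 0.98 did not pass (SE 0.514, adjusted p = 0.266). Oas2 was at -0.74, -0.08, -1.46 and 0.69 in Cdk6-/-, at -1.34, -1.68, -2.05 and 0.12 in Cdk6-K43M, and at 0.03 and -1.06 in the pools. Replicate 4 was the only Cdk6-K43M sample above wild type. The fitted Oas2 change in Cdk6-K43M was -1.11 (SE 0.37, adjusted p = 0.0603) and, as a description only, -1.40 without replicate 4 (adjusted p = 0.0123). Without Cdk6-K43M replicate 1, 2 or 3 it was -1.09, -1.02 or -0.95 (adjusted p = 0.111, 0.116 and 0.126). Oas3, Oasl1 and Oasl2 did not pass either; Oas3 was well above background in only 2 Cdk6-/- and 1 Cdk6-K43M samples, and the part of that limit in its small range was not tested.

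Isg15, a ubiquitin-like protein attached to other proteins during the response, Usp18, the protease that removes it and dampens the receptor, and Herc6, a ligase of the same pathway in mice, did not pass. Their medians ran from -1.47 to 1.38 over the Cdk6-/- samples and from -2.13 to 1.26 over the Cdk6-K43M samples, the widest of the role groups. Isg15, whose promoter held the 3 overlapping matches, ran from -1.52 to 1.51 in Cdk6-/- and from -2.32 to 1.26 in Cdk6-K43M. In both genotypes replicate 4 was the highest and replicate 3 the lowest for all 3 genes.

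The IFIT proteins bind viral RNA and interfere with its translation, and in Cdk6-K43M this family had fitted changes of -1.26 for Ifit3, -0.76 for Ifit1 and -0.71 for Ifit2, none past the threshold with all samples. Ifit3 was at -0.01, -0.10, -1.03 and 0.85 in Cdk6-/- and at -1.32, -2.07, -2.45 and 0.31 in Cdk6-K43M, with 0.07 and -1.10 in the pools. Replicates 1 to 3 of Cdk6-K43M lay below all Cdk6-/- samples, and replicate 4 lay above 3 of them. The Ifit3 change in Cdk6-K43M had an adjusted p of 0.0522 (SE 0.404). As a description only, it was -1.62 without replicate 4 (adjusted p = 0.0058). Without Cdk6-K43M replicate 1, 2 or 3 it was -1.27, -1.12 or -1.04 (adjusted p = 0.092, 0.107 and 0.107). Ifit2 showed -0.12, -0.20, -0.58 and 0.43 in Cdk6-/-, -1.05, -1.61, -1.13 and 0.25 in Cdk6-K43M, and 0.18 and -0.51 in the pools. Again 3 Cdk6-K43M samples were below every Cdk6-/- sample and replicate 4 was not. Its change was -0.71 (SE 0.253, adjusted p = 0.0765) and, as a description only, -0.94 without replicate 4 (adjusted p = 0.0049). Without Cdk6-K43M replicate 1, 2 or 3 it was -0.67, -0.55 or -0.66 (adjusted p = 0.146, 0.146 and 0.144). Ifit1 was well above background in only 2 of the 4 Cdk6-K43M samples.

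The restriction factors comprised Rsad2 (viperin, which makes a chain-terminating nucleotide), its neighbour Cmpk2, Bst2 (tetherin, which holds budding virions at the membrane) and Samd9l, an antiviral protein that also restrains growth of haematopoietic cells. Samd9l was at -0.18, 0.02, -0.10 and 0.24 in Cdk6-/- and at 0.05, 0.05, 0.36 and 0.18 in Cdk6-K43M, with 0.19 and 0.37 in the pools. All Cdk6-K43M arrays were above wild type, and Cdk6-/- replicate 4 lay within their range. Its rise in Cdk6-K43M was 0.26 (SE 0.0758, adjusted p = 0.035), or 1.20-fold, and it was not called without Cdk6-/- replicate 2 (adjusted p = 0.0507) or without Cdk6-K43M replicate 3 or 4 (adjusted p = 0.0736 and 0.0585). Rsad2 gave -0.24, -0.20, -1.16 and 0.86 in Cdk6-/-, -1.14, -1.47, -1.61 and 0.71 in Cdk6-K43M, and -0.24 and -0.72 in the pools. As for the IFIT genes, Cdk6-K43M replicate 4 was far above the other 3. The Rsad2 change in Cdk6-K43M was -0.83 (SE 0.379, adjusted p = 0.157) and, as a description only, -1.16 without replicate 4 (adjusted p = 0.0189). Without Cdk6-K43M replicate 1, 2 or 3 it was -0.77, -0.70 or -0.67 (adjusted p = 0.262, 0.272 and 0.291). The Rsad2 probe was well above background in 2 of 4 Cdk6-K43M samples. Bst2 and Cmpk2 did not pass in any comparison.

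Parp9 and Dtx3l form a complex that ADP-ribosylates and ubiquitylates proteins, and Parp14 is a related enzyme. None of the 3 passed, and their medians ran from -0.31 to 0.54 over the Cdk6-/- samples and from -0.78 to 0.34 over the Cdk6-K43M samples. These narrower ranges still had replicate 4 highest and replicate 3 lowest for all 3 genes in both genotypes.

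The last group holds the chemokine Cxcl10, which draws activated T cells, Rtp4, Xaf1, Ifi44, Ifi35, the nuclear body protein Sp100 and Lgals3bp, a secreted galectin-binding glycoprotein. None passed. Lgals3bp was at 0.56, 0.35, 0.04 and 1.46 in Cdk6-/-, at 0.35, 0.47, -1.01 and 1.55 in Cdk6-K43M, and at 0.61 and 0.58 in the pools. It was above wild type on all arrays except Cdk6-K43M replicate 3. Its fitted change in Cdk6-/- was 0.64 (SE 0.34, adjusted p = 0.271). Cxcl10 ranged from -1.68 to 2.26 in Cdk6-K43M, the largest SD of any member (1.92), and was well above background in only 1 of these 4 samples.

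Across all 34 genes, 27 were below the wild-type pool in Cdk6-K43M replicates 1 to 3 and above it in replicate 4. Only Stat2, Ddx58 and Oas1c were below it in all 4 Cdk6-K43M samples, and Oas1c, Eif2ak2 and Lgals3bp were above it in all 4 Cdk6-/- samples. The shares of all genes with these patterns were not computed. In Cdk6-K43M replicates 1 to 4 taken singly, 48.5, 50.2, 47.9 and 47.3% of all genes lay above the pool. The slides gave the same sign for the difference between the genotypes. Cdk6-K43M minus Cdk6-/- in the members' median was -0.56 on slide 1 (1 sample each), -0.25 on slide 2 (2 samples each) and -1.08 on slide 3 (1 sample each). These sizes depend on which samples shared a slide. Slide 3 set Cdk6-K43M replicate 3, the lowest for 27 members, against Cdk6-/- replicate 2, and slide 2 held replicate 4 of both genotypes. The shared sign is therefore a description. For Oas1c the within-slide differences were -0.49, -0.65 and -0.56.

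The pooled RNA gave an independent hybridisation of the same material. If the 4 RNAs of a genotype had been pooled equally, a proportion that the labels do not give, the pool should show the mean of their ratios. All 34 genes lay within 0.5 log2 units of that value in both genotypes. The share of all genes within this distance was not computed, and the distance is as large as several fitted changes above. The median deviation was 0.16 in Cdk6-/- and 0.052 in Cdk6-K43M. Oas1c deviated furthest downward, by -0.42 in Cdk6-/- and -0.35 in Cdk6-K43M. Rtp4 deviated furthest upward, by 0.48 and 0.45. The part of the exchanged dyes in these deviations was not tested.

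**Figure D4:**
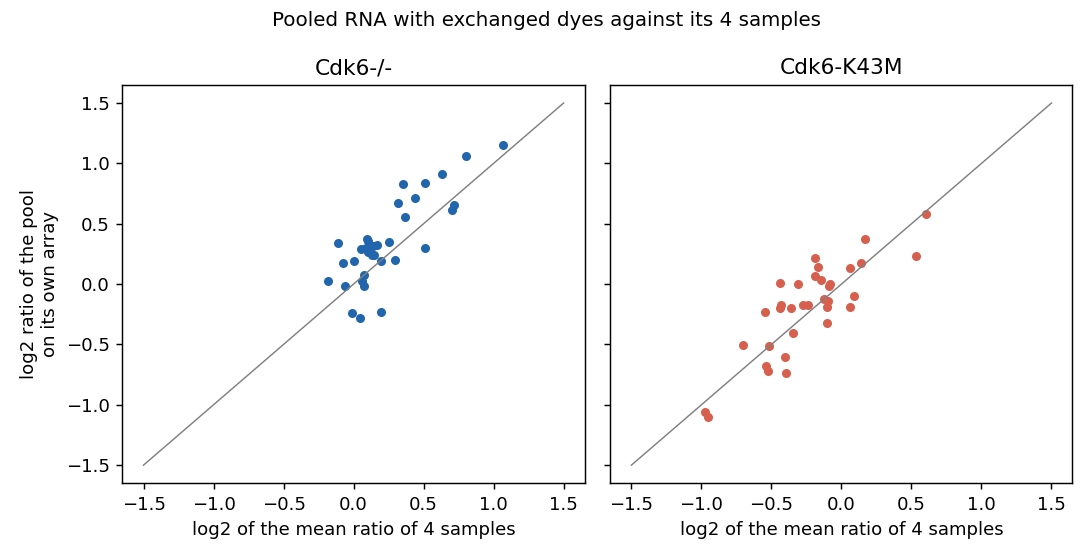
Log2 ratio of each interferon response gene in the pooled RNA with exchanged dyes (y axis) against the log2 of the mean ratio of the 4 samples in that pool (x axis), with 1 point per gene and the line of equality. All 34 points lie within 0.5 log2 units of the line in both genotypes, and the share of all genes that do so was not computed.

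Other genes of the pathway were taken from lists of textbook names, drawn up with earlier results of these data known. Of 30 further interferon-induced genes, 27 were measured. In Cdk6-/- 1 of them rose, Tdrd7 (0.89), and in Cdk6-K43M 1 rose and 3 fell, namely Tdrd7 (0.71), Trim21 (-0.55), Slfn5 (-1.12) and Slfn8 (-0.59), beside 7.24% and 20.1% of all genes. None of the 27 passed between the genotypes, and 7 had an unadjusted p under 0.05 there, against 14.1% of all genes. Their sample medians followed those of the members, at 0.02, 0.03, -0.21 and 0.52 in Cdk6-/- and -0.34, -0.40, -0.63 and 0.27 in Cdk6-K43M. Replicate 4 was the highest in 25 of the 27 in Cdk6-/- and in 22 in Cdk6-K43M. Their windows held the core of the element in 10 of 24 (41.7%).

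Genes upstream of the response had sample medians close to 0. Of 14 genes for ligands, receptors and signalling 12 were measured, and their sample medians stayed between -0.09 and 0.05, with replicate 4 highest in 5 of 12 in Cdk6-/- and 4 of 12 in Cdk6-K43M. The transcription factor gene Irf3 passed as higher in both mutants (0.27 in Cdk6-/-, 0.25 in Cdk6-K43M), with the pools above all samples. Its samples were at 0.05, 0.15, 0.02 and 0.07 in Cdk6-/- and 0.18, 0.10, 0.13 and -0.20 in Cdk6-K43M, and the pools with exchanged dyes at 0.49 and 0.43, so 1 Cdk6-K43M sample lay below wild type. In Cdk6-K43M the receptor chain gene Ifnar2 also rose (0.45), while Irf2 (-0.26) and Pias1 (-0.36), which restrain the response, fell. The kinase gene Jak1 was measured and did not pass. The ligand genes were at the limit of the arrays: Ifna4 was not well above background in any sample, and Ifnb1 was so in 1 Cdk6-/- sample. Of 17 nucleic acid sensing genes 16 were measured. In Cdk6-/- 1 of them, the signalling adaptor gene Traf3, fell (-0.37). In Cdk6-K43M Mavs, the mitochondrial adaptor of RIG-I, rose by 0.36, and 5 fell: Tlr7 (-0.65), Zc3hav1 (-0.44), Myd88 (-0.39), Trim25 (-0.36) and Unc93b1 (-0.30). Neither list had a gene past the test between the genotypes. There 3 of the 12 and 7 of the 16 had an unadjusted p under 0.05, against 14.1% of all genes.

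**Figure D5:**
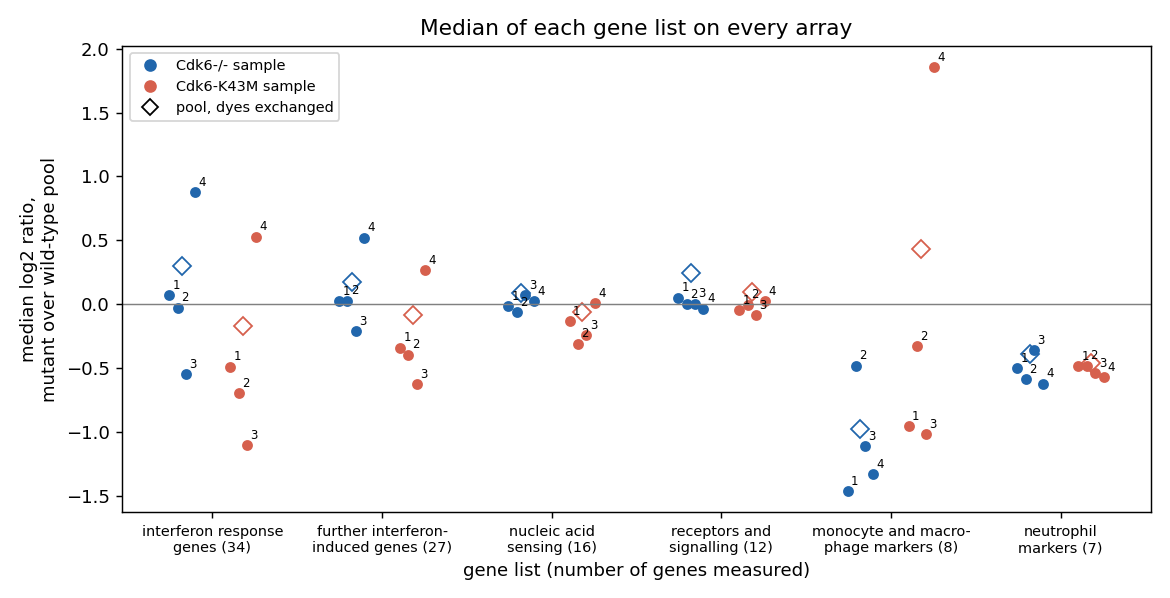
Median log2 ratio of 6 gene lists (x axis, with the number of genes measured) on each single-sample array (points, numbered by replicate) and on the pools with exchanged dyes (diamonds). The interferon response genes and the further interferon-induced genes have replicate 4 highest in both genotypes, and the monocyte and macrophage markers are high only in Cdk6-K43M replicate 4 among the samples.

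Markers of other cell types were set beside the members sample by sample. Cdk6-K43M replicate 4, where the members were highest for that genotype, was also the sample with a median of 1.85 over the monocyte and macrophage markers, and 7 of the 8 markers had their highest Cdk6-K43M value there. Csf1r was at 1.95, Cd68 at 1.76 and Lyz2 at 2.24 in that sample. In Cdk6-/- replicate 4 the members were highest while the median of these markers was -1.33, with Csf1r at -1.002, Cd68 at -1.66 and Lyz2 at -2.13. Cdk6-/- replicate 3, the lowest for the members, had a marker median of -1.11. Of 7 neutrophil markers, 6 fell against wild type in each mutant, led by S100a9 (-4.16 in Cdk6-/-, -3.94 in Cdk6-K43M) and S100a8 (-3.16 and -2.94), and the 7 had sample medians of -0.62 to -0.36. None of the 7 passed between the genotypes, and none had an unadjusted p under 0.05 there. S100a8 was well above background in 0 of 4 Cdk6-/- and 1 of 4 Cdk6-K43M samples, and Ngp, Camp and Mpo in none of either mutant. The falls of these genes are therefore bounds, and their comparison between the mutants says little. Plasmacytoid dendritic cells are strong producers of interferon, and of 8 listed markers 6 were measured, without Ccr9 and Klk1. The medians of the 6 lay between -0.12 and 0.03 in the Cdk6-/- samples and between -0.57 and -0.11 in the Cdk6-K43M samples. Of these 6, Ly6d fell in both mutants (-1.31 and -2.80) and Tcf4 in Cdk6-K43M (-0.29). None passed between the genotypes, where 3 had an unadjusted p under 0.05, namely Ly6d (-1.43), Irf8 (-0.44) and Tcf4 (-0.42). Whether these transcripts came from plasmacytoid dendritic cells or from the B-lineage cells of the colonies was not tested. Of 9 T and NK cell markers 4 were measured, with sample medians of -0.10 to 0.19, and of 6 erythroid markers 2, with -0.12 to 0.08. The part of macrophage transcripts in the values of Cdk6-K43M replicate 4, and that of the other markers in the members' values, was not tested.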

How the data were processed

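Expression was measured on 10 2-colour Agilent arrays of 1 design on 3 slides. Per the file headers, Feature Extraction 11.5.1.1 (Agilent) produced intensity values for every spot and for the background around it, and the probes were designed on mm9. The same files hold intensities from which the software had subtracted background and in which it had normalized the dyes, per the file headers. The authors also deposited log2 values whose file is named as loess normalized, with the background correction not stated, and these served as an alternative.

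Median spot signals and median local background entered limma 3.58.1 under R 4.3.3 and were read in through the package data.table (version 1.17.8). Normexp with an offset of 50 was followed by loess within arrays, without control spots. Of 56605 probes, 28177 were kept, for which a genotype had 3 or more of its 4 single-sample arrays, or wild type 5 or more of its 10 channels, well above background. Symbols came from RefSeq (GRCm38.p6) by transcript accession, for 58.3% of the probes. The brightest kept probe stood for each gene.

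Comparisons with wild type used all 10 arrays, with swapped arrays reversed in sign and a dye term. The swapped pools hold the samples' own RNA, which is thus counted again, and a sample left out remains in its pool. The genotypes were compared on the 8 single-sample arrays. Benjamini-Hochberg adjustment ran over 22008 genes, with a threshold of 0.05. The numbers of arrays set the precision.

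Members and lists were chosen with earlier results of these data known. Array by array values are given for members past the threshold in any comparison, topped up to 12 by unadjusted p. At most 8 genes past the threshold per pathway list and comparison are named, besides Cdk6 and cell type markers. Other members are given by their range. Results for some genes of the pathway lists, 1 past the threshold in Cdk6-/- among them, are not reported here. The core of the ISRE was searched in RefSeq promoter windows of 300 bases. Alternatives covered the background correction, normalization, filter, probe choice, slide, dye term, spread of the pool, replicate number and each sample left out.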

Additional observations from a re-analysis of the deposited data

Results flagged for a closer look

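Within a genotype of 4 samples, the highest or lowest value of a gene was marked where its gap to the next value took an unusually large share of the range (above Dixon's 95% critical value). Chance alone marks about 1 in 20 such groups, and 3 of 68 (4.41%) were marked here. Zbp1, the Z-nucleic acid sensor, was at 0.90 in Cdk6-/- replicate 4, with a gap of 0.896 of the range. Bst2, the membrane tether of virions, was at 0.83 in Cdk6-K43M replicate 4 (0.889 of the range). The chemokine gene Cxcl10 was at 2.26 in the same sample (0.936 of the range), the only Cdk6-K43M sample in which its probe was well above background, so the other 3 values and the gap are bounds. All 3 marked values were the highest of their genotype and belonged to the samples in which most interferon response genes were highest.

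Oas1c was marked because its level differed between the mutants by the test of the difference itself, with -0.59 for Cdk6-K43M minus Cdk6-/- on the log2 scale. The second Oas1c probe, with means of 0.10 and 0.094, did not share this difference.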

How the results depend on the processing

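The medians of the 34 genes kept their sign in all alternatives, at 0.039 to 0.30 in Cdk6-/-, -0.56 to -0.18 in Cdk6-K43M and -0.86 to -0.35 between the genotypes. With samples left out in turn, the number of members past the threshold stayed at 1 in Cdk6-/-, ran from 2 to 10 in Cdk6-K43M and from 0 to 1 between the genotypes. In Cdk6-/- it was 0 with slide as a block (2.9% of all genes), 0 with the variance doubled for the spread of the wild-type pool (0.563%), and 2 on the 8 single-sample arrays without a dye term (15%). In Cdk6-K43M it was 6 on those 8 arrays, all lower (25% of all genes, 13.4% lower), and 1 with the variance doubled (5.58%). Between the genotypes it was 0 with median centring, with the mean of all kept probes and with slide as a block, settings under which Oas1c had an adjusted p of 0.0551, 0.174 and 0.0806. The causes were not tested. The fall of Oas1c in Cdk6-K43M passed in all 17 alternatives (adjusted p 5.73e-05 to 0.0055), none of which fitted its second probe alone. That probe averaged 0.094 in the Cdk6-K43M samples, with -0.04 in their pool. With the mean of both probes the fitted change was -0.29. Eif2ak2 in Cdk6-/- was lost in 2 of 17, Stat2 in Cdk6-K43M in 3 and Samd9l in 6. Median centring put the median of all genes at 0.112 in Cdk6-K43M, and relative to it the members' median was -0.33. Detection limits Oas3, Ifit1, Rsad2, Cxcl10, Ifi44 and Oasl2, which were not well above background in every sample.

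With the replicate number as a block, 0 members passed between the genotypes, Oas1c had an adjusted p of 0.0646, and 0.168% of all genes passed. Samples with the same number had deviations that correlated across genes at 0.0839, -0.066, 0.228 and 0.139 for replicates 1 to 4. Replicates 3 and 4 alone correlated best with their own number. The main fit did not take the numbers as pairs, and whether they mark pairs was not tested. Among the 34 members the same numbers were at the ends in both genotypes. Replicate 4 was highest in 33 members in Cdk6-/- and 32 in Cdk6-K43M, and replicate 3 lowest in 31 and 27. Any spread shared by number stays in the error of the main fit.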
